A study of Mus musculus with 12 samples.

Results

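The genes of the transcription factor AP-1 were followed in airway eosinophils of mice with allergic airway inflammation, sorted by whether they carried the receptor TREM-1 at the surface. The set was defined by gene names, with earlier results of these data known. It holds the FOS subfamily (Fos, Fosb, Fosl1 and Fosl2), the JUN subfamily (Jun, Junb and Jund) and 3 relatives that pair with JUN proteins (Batf, Batf3 and Atf3). All 10 symbols were found among the 39666 genes of the count table, and all 10 were among the 18302 genes that passed the filter on low counts. The mice were wild-type C57BL/6, aged 8 to 12 weeks. They received 20 µg ovalbumin with 4 mg alum on days 0 and 7, and inhaled an aerosol of 1% ovalbumin for 40 minutes a day from day 16 to day 18. Harvest was on day 19. Eosinophils were gated from pooled lung lavage as cells high in side scatter and positive for CD45, CD11b and Siglec-F, with CD11c and Ly6G low to middle. Each of 6 lavages gave a TREM-1+ and a TREM-1- library, 12 in all, so both groups share strain, sensitization, challenge and day. TREM-1 is an activating receptor of myeloid cells. No unchallenged mice are among the libraries, and a lavage is a pool of mice and not an animal.

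AP-1 is a dimer of basic leucine zipper (bZIP) proteins. JUN proteins pair with each other or with FOS proteins, whereas FOS proteins bind DNA only with a partner such as a JUN protein. JUNB activates many AP-1 sites less strongly than JUN and can oppose it. BATF and BATF3 lack a transactivation domain, pair with JUN proteins and bind composite sites with IRF4 or IRF8. Many of these genes are immediate early genes, whose transcripts rise within minutes of a stimulus and are short-lived, and in granulocytes they respond to cytokines and to activating receptors.

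Trem1, which checks the sort, averaged 93.1 ± 20.0 CPM in TREM-1+ cells and 30.7 ± 8.12 CPM in TREM-1- eosinophils (SD, n = 6 each), with an edgeR adjusted p of 7.36e-15. CPM are counts set to the same total in every library after TMM scaling (trimmed mean of M values). Total counts of TREM-1+ libraries lay between 8626701 (lavage 4) and 19274912, and those of TREM-1- libraries between 16513387 and 21234053. The 11 eosinophil markers, Siglecf, Ccr3 and Epx among them, were summed in each library. The sums lay between 4374 and 6556 CPM in TREM-1+ cells and between 4514 and 6862 CPM in TREM-1- libraries. Single markers differed, with 2 of the 11 higher in TREM-1+ cells and 6 lower at an edgeR adjusted p below 0.05. Ccr3 (log2 fold change -0.27) and Ear1 (-1.50) were among the lower. Alox15 was among the higher and a large part of the sums, averaging 2542 CPM in the TREM-1+ fraction against 2239 in the other. Similar sums therefore do not show that the fractions were alike in these markers. Libraries of lavages 1 and 2 were the closest of all, so results of Jun, Junb, Jund, Fos, Fosl2 and Batf3, and calls of other named genes that changed, are also given for lavages 1 and 2 alone and for lavages 3 to 6 alone. The labels do not say whether different mice went into each pool, and p-values from all lavages cover the spread among the 6 pools alone. Those from lavages 1 and 2 alone rest on 2 pairs from close pools, so a small p there does not measure the spread among the 6 pools.

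Within the JUN subfamily, Jun rose and Junb fell in TREM-1+ eosinophils, and Batf3 rose with Jun, each in 6 of 6 lavages. Batf3 had the largest difference of the 3, 1.57-fold from its mean paired log2 difference, and was the member whose groups did not overlap. The other 7 members did not pass the test. A gene was called when its Benjamini-Hochberg adjusted p over all genes tested (edgeR, lavage as a block) was below 0.05. By that rule 9.82% of all genes tested were called, 3.10% as higher and 6.72% as lower in TREM-1+ eosinophils, against 2 members called higher and 1 called lower of 10. Counting pairs alone, 2 members were higher in 6 of 6 pairs (5.08% of all genes tested) and 2 were lower in 6 of 6 (8.31%). Groups did not overlap for 1 member (0.951% of all genes tested). The median log2 fold change, TREM-1+ minus TREM-1-, was 0.07 over the 10 members and 0.0043 over all genes tested. The median of the absolute log2 fold changes was 0.17 over the members and 0.13 over all genes tested. These are bulk libraries, in which fewer cells of a type and less RNA per cell cannot be told apart.

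**Figure D1:**
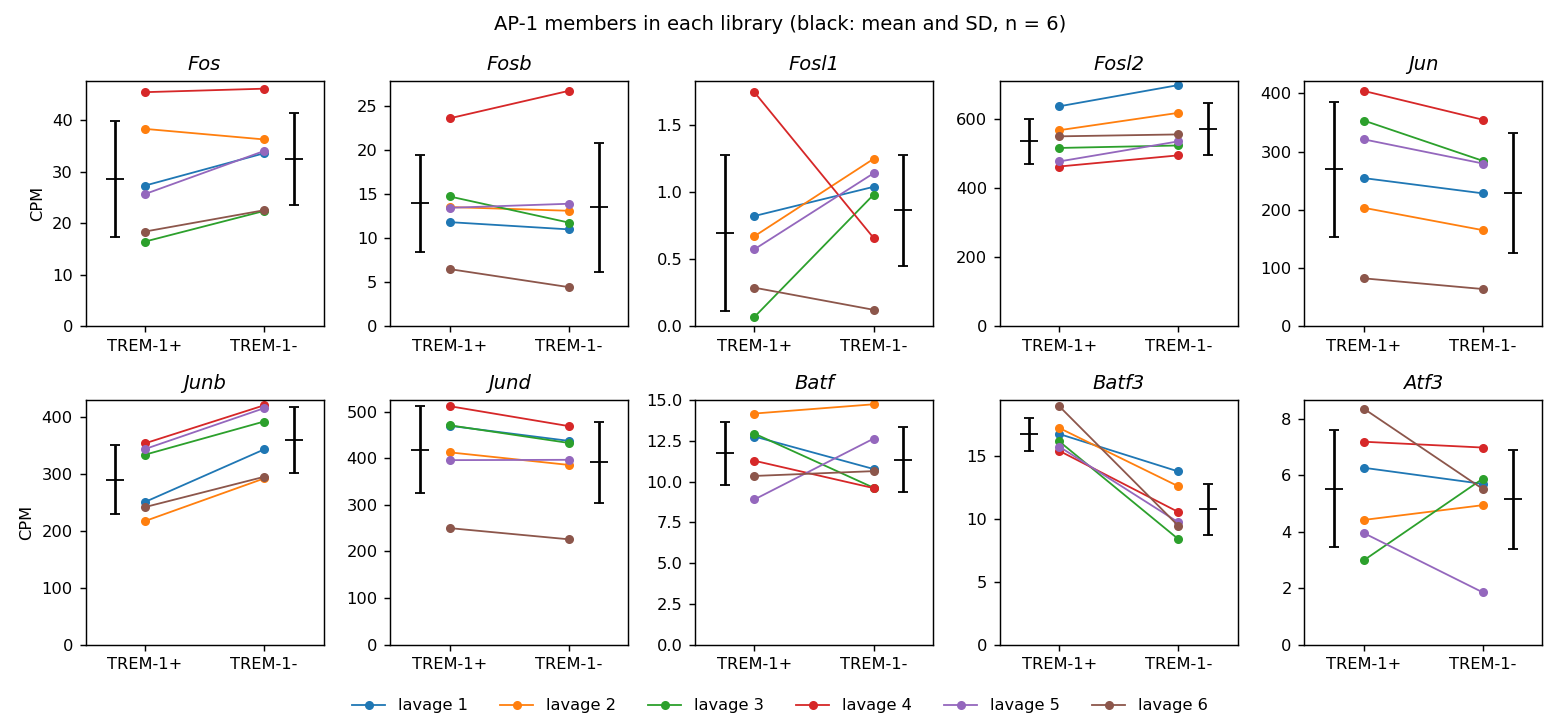
CPM of each AP-1 member (vertical axes, each from 0) in the TREM-1+ and the TREM-1- library of each lavage. Lines join the libraries of a lavage, and black marks give the mean and SD of 6 libraries. Every line falls from left to right for Jun and Batf3 and climbs for Junb and Fosl2, and lavage 6 lies at the bottom for Jun, Jund and Fosb.

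The 250 bases before the start site of the 3 called members are shown because these genes differed between the fractions and carry different sets of known promoter letters. Sequences are from RefSeq on GRCm38.p6, each read 5′ to 3′ on the gene's strand, and capitals mark every match to the motifs searched. Jun lies at chr4:95052223-95052472 (minus strand), Junb at chr8:84978749-84978998 (minus strand) and Batf3 at chr1:191098164-191098413 (plus strand).
Jun: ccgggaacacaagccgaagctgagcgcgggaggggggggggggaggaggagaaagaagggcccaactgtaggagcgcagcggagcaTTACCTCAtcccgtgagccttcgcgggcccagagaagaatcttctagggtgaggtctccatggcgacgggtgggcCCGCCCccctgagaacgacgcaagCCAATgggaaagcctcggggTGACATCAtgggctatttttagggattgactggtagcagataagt
Junb: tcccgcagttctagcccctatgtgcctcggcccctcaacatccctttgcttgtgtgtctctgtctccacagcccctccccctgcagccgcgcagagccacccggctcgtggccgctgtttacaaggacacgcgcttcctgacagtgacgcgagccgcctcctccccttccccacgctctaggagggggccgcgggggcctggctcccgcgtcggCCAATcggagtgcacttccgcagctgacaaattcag
Batf3: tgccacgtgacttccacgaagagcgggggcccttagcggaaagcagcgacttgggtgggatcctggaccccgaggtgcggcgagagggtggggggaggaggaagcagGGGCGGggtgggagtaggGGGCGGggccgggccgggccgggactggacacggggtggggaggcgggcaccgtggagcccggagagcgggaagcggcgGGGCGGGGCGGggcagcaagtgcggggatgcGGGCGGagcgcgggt
Positions are counted back from the start site, and give the first base of a match. The Jun window holds TTACCTCA at -164 and TGACATCA at -45, the jun2 and jun1 sites, at which dimers of JUN and ATF2 are known to bind and drive the gene. The letters of the jun2 site were found in 0.728% and those of the jun1 site in 2.93% of 32851 promoter windows of the same length. The same window holds a CCAAT box at -65 and the GC box letters GGGCGG on the opposite strand at -89. Junb has a CCAAT box at -36 and no other match. Batf3 has 5 GC boxes, at -143, -125, -46, -41 and -15, with those at -46 and -41 overlapping by 1 base. CCAAT was found in 33.8% and GGGCGG in 32.7% of all windows.

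Promoter windows were matched for Fos, Fosb, Fosl2, Jun, Junb, Jund, Batf, Batf3 and Atf3. The Jund window may start at another transcript than the one expressed in these cells, which was not checked. Also searched, on both strands, were the AP-1 site TGACTCA, the cyclic AMP response element TGACGTCA, its part TGACGT, the CArG box to which serum response factor binds, and TATAAA. The letters TGACTCA, TGACGTCA and a CArG box were in 0 of these windows, against 4.46%, 1.55% and 1.47% of all windows. Bases farther upstream were not searched. The absence therefore holds for the windows alone, and does not say that Fos or another member lacks a CArG box or AP-1 site farther upstream. The shorter TGACGT, contained in TGACGTCA, stood in Fos at -66, in Batf at -98 and in Atf3 on the opposite strand at -8, and in 6.47% of all windows. TATAAA stood in Fos at -33, and in 12.4% of all windows. A match describes letters and not a site in use.

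Jun encodes c-JUN, the most strongly activating protein of its subfamily. In lavages 1 to 6 Jun had 254, 203, 353, 404, 321 and 81.9 CPM in TREM-1+ libraries, against 228, 165, 284, 355, 279 and 63.6 CPM in TREM-1- libraries. The TREM-1+ library was the higher in every lavage, but the groups overlapped widely because lavages differed more than fractions did. Jun averaged 269.6 ± 116 CPM in TREM-1+ cells and 229 ± 103 CPM in TREM-1- eosinophils (SD, n = 6 each). The log2 fold change was 0.25 ± 0.04 (SE, 95% interval 0.18 to 0.33, edgeR adjusted p = 4.93e-06), and an exact two-sided permutation test that flips the signs of the 6 paired differences gave p = 0.0312. With 64 sign patterns this is its smallest possible p. Paired differences on the log2 CPM scale ran from 0.16 in lavage 1 to 0.37 in lavage 6. Jun passed the test in lavages 1 and 2 alone (0.25, edgeR adjusted p = 2.16e-05, from 2 close pools) and in lavages 3 to 6 alone (0.26, edgeR adjusted p = 0.000133).

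Junb encodes JUNB, which is among the AP-1 proteins used in T helper 2 cytokine gene control. It moved the other way. From lavage 1 to lavage 6 Junb had 250.3, 217, 333, 353, 343 and 241 CPM in TREM-1+ libraries, against 343, 292, 391.6, 420.0, 415 and 294 CPM in TREM-1- libraries. Each TREM-1+ library lay below its TREM-1- partner, while the groups overlapped. Junb averaged 289.7 ± 60.0 CPM in TREM-1+ cells and 359 ± 58.1 CPM in TREM-1- eosinophils (SD, n = 6 each). Its log2 fold change was -0.32 ± 0.04 (SE, 95% interval -0.39 to -0.25, edgeR adjusted p = 6.59e-08, exact two-sided sign-flip permutation p = 0.0312). The paired difference was -0.45 and -0.43 in lavages 1 and 2 and between -0.29 and -0.23 in lavages 3 to 6 on the log2 CPM scale. Junb passed the test in lavages 1 and 2 alone (-0.42, edgeR adjusted p = 9.74e-17, from 2 close pools) and in lavages 3 to 6 alone (-0.26, edgeR adjusted p = 3.35e-05).

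Jund encodes JUND, which unlike its relatives is expressed steadily in many resting cells. The lowest, median and highest Jund levels were 249.7, 440.8 and 511 CPM in TREM-1+ libraries, against 226, 414 and 469 CPM in TREM-1- libraries. It was higher in TREM-1+ eosinophils in 5 of 6 lavages and level in lavage 5, where the paired log2 CPM difference was -0.0025. The log2 fold change of 0.10 ± 0.03 (SE, 95% interval 0.03 to 0.16) did not pass the test (edgeR adjusted p = 0.0505, exact two-sided sign-flip permutation p = 0.0625). It passed with DESeq2 (adjusted p = 0.0205) and with limma-voom (adjusted p = 0.0206) at the same size, and without lavage 5 (0.12, edgeR adjusted p = 0.0164). Jund was at 0.12 in lavages 1 and 2 alone (edgeR adjusted p = 0.0673) and at 0.094 in lavages 3 to 6 alone (edgeR adjusted p = 0.246).

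Ratios of counts within a library need no scaling between libraries, and restate the differences above as a balance. In lavages 1 to 6 there were 1.02, 0.937, 1.06, 1.14, 0.935 and 0.340 Jun counts per Junb count in TREM-1+ libraries, against 0.666, 0.565, 0.725, 0.844, 0.673 and 0.216 in TREM-1- libraries. In each lavage the TREM-1+ library had the higher ratio, by 0.58 on the log2 scale on average and by between 0.44 and 0.73. This direction follows from Jun being higher and Junb lower in each lavage, and is not a separate result. The Jund to Junb ratio averaged 1.47 ± 0.36 in TREM-1+ and 1.09 ± 0.21 in TREM-1- libraries (SD, n = 6 each) and was higher in 6 of 6 pairs, by 0.42 on average on the log2 scale (range 0.27 to 0.56). The Jun to Jund ratio averaged 0.619 ± 0.19 in TREM-1+ and 0.558 ± 0.18 in TREM-1- libraries and was also higher in 6 of 6 pairs, by 0.16 on average (range 0.05 to 0.22). A ratio shows unequal change between its members and not which of them changed.

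**Figure D2:**
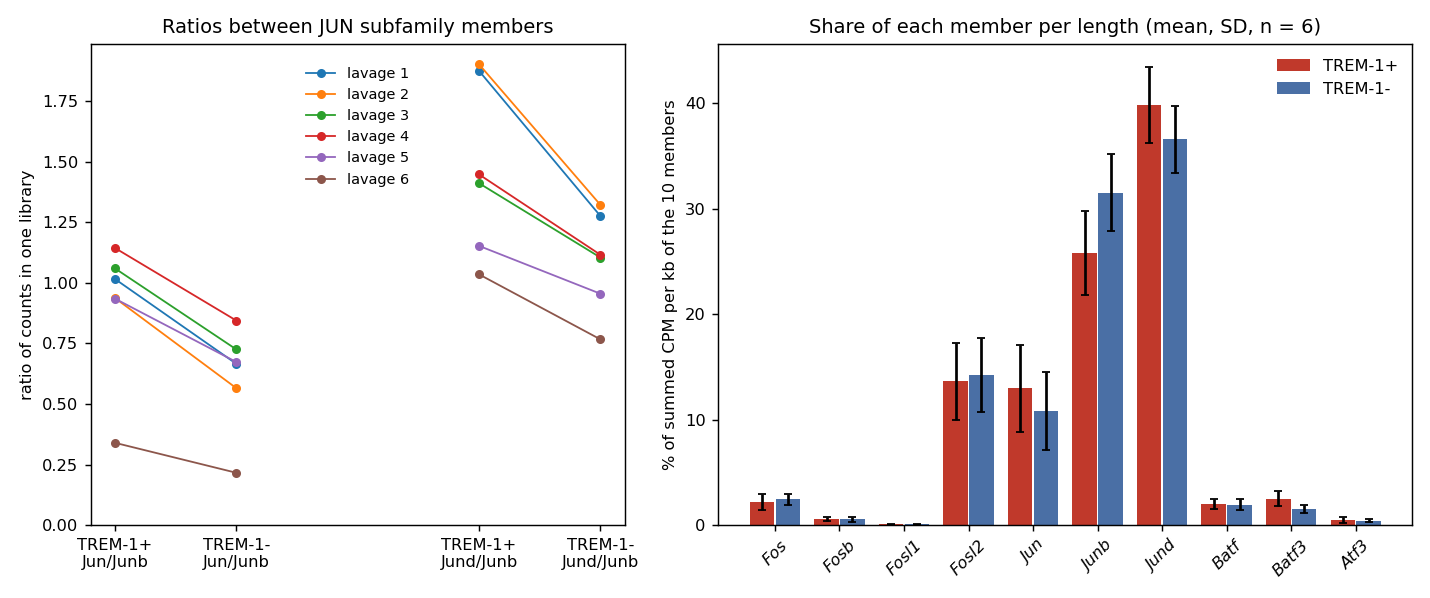
Left, ratio of Jun to Junb counts and of Jund to Junb counts in each library, with a line for each lavage. Both ratios lie higher in the TREM-1+ library of every lavage, and Jun to Junb in lavage 6 (0.340 and 0.216) lies far under the others. Right, each member's percentage of the summed CPM per kb of the 10 members (bars from 0, mean and SD of 6 libraries), with the Jund and Junb bars tallest in both fractions.

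In the FOS subfamily 0 of 4 genes were called by edgeR, 1 (Fosl2) by DESeq2 and by limma-voom, and 2 (Fos and Fosl2) had an unadjusted p below 0.05 with each tool. Fosl2 encodes FRA-2, a FOS protein without a strong transactivation domain. The lowest, median and highest Fosl2 levels were 463, 533 and 637 CPM in TREM-1+ libraries, against 495, 546 and 699 CPM in TREM-1- libraries. TREM-1+ values lay below TREM-1- values in 6 of 6 lavages, by between 0.01 and 0.17 on the log2 CPM scale, and the groups overlapped. The log2 fold change was -0.09 ± 0.03 (SE, 95% interval -0.16 to -0.03, edgeR adjusted p = 0.0689, exact two-sided sign-flip permutation p = 0.0312). With DESeq2 (adjusted p = 0.018) and limma-voom (adjusted p = 0.0108) it passed the threshold at about the same size. Fosl2 was at -0.11 in lavages 1 and 2 alone (edgeR adjusted p = 0.0966) and at -0.078 in lavages 3 to 6 alone (edgeR adjusted p = 0.364). When libraries were scaled by their totals alone, the value was 0.035, below the median of 0.13 that this scaling gave over all genes tested.

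Fos encodes c-FOS, the subfamily's classical immediate early protein. The lowest, median and highest Fos levels were 16.4, 26.5 and 45.5 CPM in TREM-1+ libraries, against 22.4, 33.8 and 46.2 CPM in TREM-1- libraries. Fos was lower in TREM-1+ eosinophils in 5 of 6 lavages and higher in lavage 2, and in lavage 4 the fractions differed by 0.02 on the log2 CPM scale. The log2 fold change of -0.22 ± 0.08 (SE, 95% interval -0.38 to -0.06) did not pass the test (edgeR adjusted p = 0.0709, exact two-sided sign-flip permutation p = 0.0938). Without lavage 2 it was -0.29 and passed (edgeR adjusted p = 0.0285). Fos was at -0.085 in lavages 1 and 2 alone (edgeR adjusted p = 0.736) and at -0.29 in lavages 3 to 6 alone (edgeR adjusted p = 0.0951).

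Fosb encodes FOSB and, by splicing, the shorter ΔFOSB, which gene-level counts do not separate. Its lowest, median and highest levels were 6.47, 13.5 and 23.6 CPM in TREM-1+ libraries, against 4.42, 12.4 and 26.7 CPM in TREM-1- libraries, a difference of 0.11 ± 0.11 (log2, SE, edgeR adjusted p = 0.674). Fosl1, the gene of FRA-1, was near the limit of detection. It had between 1 and 17 counts in TREM-1+ and between 2 and 24 counts in TREM-1- libraries. Its log2 fold change of -0.46 had a 95% interval from -1.51 to 0.59 (edgeR adjusted p = 0.725), so a difference of either sign was not detectable at this depth.

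Although Junb and Jun had smaller edgeR adjusted p, Batf3 was the only member whose groups did not overlap. Its protein is required for the development of type 1 conventional dendritic cells in mice. In lavages 1 to 6 Batf3 had 16.7, 17.2, 16.1, 15.4, 15.7 and 18.9 CPM in TREM-1+ libraries, against 13.8, 12.6, 8.38, 10.5, 9.72 and 9.44 CPM in TREM-1- libraries. The lowest TREM-1+ value lay above the highest TREM-1- value. The means were 16.7 ± 1.28 CPM in TREM-1+ cells and 10.7 ± 2.04 CPM in TREM-1- eosinophils (SD, n = 6 each), from between 150 and 331 counts in a library. The log2 fold change was 0.65 ± 0.11 (SE, 95% interval 0.42 to 0.88, edgeR adjusted p = 8.25e-05, exact two-sided sign-flip permutation p = 0.0312). The paired difference was 0.28 and 0.45 in lavages 1 and 2, and 0.94, 0.55, 0.69 and 1.00 in lavages 3 to 6 on the log2 CPM scale. In lavages 1 and 2 alone the log2 fold change was 0.38 (edgeR adjusted p = 0.0561), and in lavages 3 to 6 alone it was 0.80 (edgeR adjusted p = 0.000406). Whether those lavages differ was not tested.

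Because Batf3 marks a dendritic cell lineage, dendritic cell markers were set beside it. Of 5 tested, 0 were called by edgeR or DESeq2 and 1 (Ccr7) by limma-voom, and 1, 1 and 2 had an unadjusted p below 0.05 by those tools in that order. All 7 listed markers, tested or not, summed to 15.6, 18.8, 31.7, 24.6, 18.5 and 18.9 CPM in TREM-1+ libraries of lavages 1 to 6. The sum was 15.4, 14.2, 21.9, 19.3, 15.04 and 15.1 CPM in TREM-1- libraries. In each of the 6 lavages it was higher in the TREM-1+ library, and in both fractions most of it was Zbtb46. Xcr1 and Clec9a, which define the Batf3-dependent dendritic cells, lay between 1.95 and 4.41 CPM and between 1.18 and 4.14 CPM in TREM-1+ libraries, against between 1.68 and 3.23 CPM and between 1.14 and 1.71 CPM in TREM-1- libraries. T and innate lymphoid cell markers also moved with the fractions. Of 9 tested, 6 were called higher and 0 lower (66.7% called, against 9.82% of all genes tested). Their summed level was 18.7 and 21.1 CPM in TREM-1+ libraries of lavages 1 and 2 and between 63.7 and 118 CPM in those of lavages 3 to 6. In the TREM-1- libraries it was 17.8 and 18.8 CPM and between 44.0 and 76.2 CPM. Batf3 was higher in TREM-1+ cells by 0.28 and 0.45 in lavages 1 and 2 (log2 CPM). In lavages 3 to 6 it was higher by 0.94, 0.55, 0.69 and 1.00. The part of these cell types in the Batf3 result was not tested.

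Batf and Atf3 did not differ detectably. Batf, whose protein is needed for T helper 17 cells in mice, had a lowest, median and highest level of 8.92, 12.0 and 14.2 CPM in TREM-1+ libraries, against 9.61, 10.7 and 14.8 CPM in TREM-1- libraries. It was higher in 3 lavages and lower in 3 (log2 fold change 0.05, 95% interval -0.20 to 0.30, edgeR adjusted p = 0.894). Atf3 encodes a stress-induced factor that restrains inflammatory genes in mouse macrophages. Its levels were 2.99, 5.34 and 8.36 CPM at the lowest, median and highest in TREM-1+ libraries, against 1.85, 5.599 and 6.98 CPM in TREM-1- libraries (log2 fold change 0.11, 95% interval -0.29 to 0.52, edgeR adjusted p = 0.836). The paired Atf3 difference ran from -0.96 in lavage 3 to 1.07 in lavage 5 on the log2 CPM scale.

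**Figure D3:**
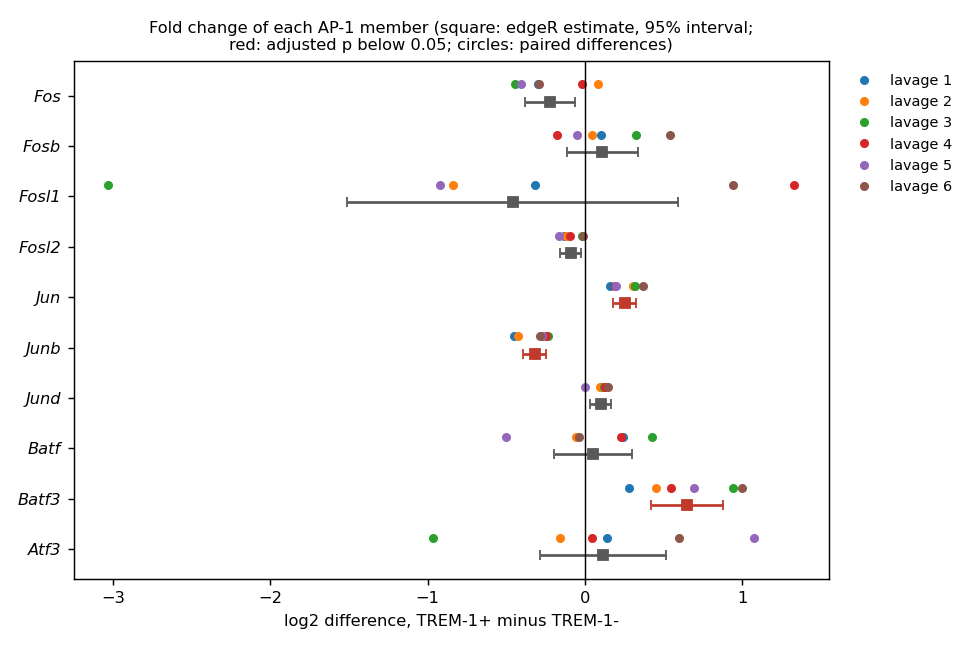
Log2 difference, TREM-1+ minus TREM-1-, of each AP-1 member. Squares are edgeR estimates with their 95% intervals, red where the adjusted p was below 0.05, and circles are paired log2 CPM differences of single lavages. All 6 circles lie right of 0 for Jun and Batf3 and left of 0 for Junb and Fosl2, and Fosl1 (between 1 and 24 counts) spreads from -3.03 to 1.33.

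Levels of different genes can be set side by side only per length. Per kilobase of the longest GENCODE vM21 transcript, TREM-1+ eosinophils held on average 251 CPM per kb of Jund, 160.2 of Junb, 84.5 of Jun and 81.9 of Fosl2. TREM-1- eosinophils held 234 CPM per kb of Jund, 199 of Junb, 87.4 of Fosl2 and 71.8 of Jun. The next members were much lower, with 15.04 for Batf3, 13.6 for Fos and 12.3 for Batf in TREM-1+ eosinophils, and 15.4 for Fos, 11.9 for Batf and 9.67 for Batf3 in TREM-1- eosinophils. Fosb, Atf3 and Fosl1 stood at 3.68, 2.78 and 0.372 CPM per kb in TREM-1+ and at 3.56, 2.59 and 0.464 CPM per kb in TREM-1- eosinophils. Jund exceeded Junb in 6 of 6 TREM-1+ and 5 of 6 TREM-1- libraries, with overlapping ranges. Jun and Fosl2 were not separated, since each was ahead in 3 of 6 libraries of either fraction. Batf3 had rank 5 in TREM-1+ and rank 7 in TREM-1- eosinophils, with ranges that overlapped those of Fos in TREM-1+ and of Batf in TREM-1- libraries. This order depends on the length used, because Fosl2 has a transcript of 6537 bases of which 978 are coding. Per coding length Fosl2 came first in both fractions, and Batf3 had rank 5 in both.

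The JUN subfamily made up 78.6% ± 4.92 of the summed CPM per kb of the members in TREM-1+ and 78.8% ± 4.35 in TREM-1- libraries (SD, n = 6 each). Junb had a share of 25.8% ± 4.01 in TREM-1+ and of 31.5% ± 3.67 in TREM-1- libraries, and Jund had 39.8% ± 3.60 in TREM-1+ and 36.6% ± 3.14 in TREM-1- libraries. The FOS subfamily held 16.4% ± 3.63 in TREM-1+ and 17.2% ± 3.44 in TREM-1- libraries, but 36.6% ± 7.05 in TREM-1+ and 38.5% ± 6.75 in TREM-1- libraries per coding length. Batf, Batf3 and Atf3 together held 5.01% ± 1.34 in TREM-1+ and 3.92% ± 0.94 in TREM-1- libraries. Per coding length the JUN subfamily held 57.8% ± 8.22 in TREM-1+ and 57.2% ± 7.52 in TREM-1- libraries. Shares are a description and were not tested.

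Members differed in how much they varied between lavages, a feature the choice of genes did not use. Averaged over both fractions, Jun was at 72.8 CPM in lavage 6 and at 184 CPM or more in the other lavages, a 5.21-fold span from lowest to highest lavage. Jund was at 238 CPM in lavage 6 and at 396 CPM or more elsewhere, and Fosb at 5.44 CPM and at 11.4 CPM or more. Batf3 spanned 1.24-fold and Fosl2 1.40-fold over lavages. Fosl2 was highest in lavage 1 and lowest in lavage 4, where Jun, Junb, Jund, Fos, Fosb, Fosl1 and Atf3 were at their highest. The TREM-1+ library of lavage 4 was the most shallow of the 12. Lavage 6 was not the most shallow, with 17011206 total counts in its TREM-1+ and 17120978 in its TREM-1- library. Other immediate early genes also summed lowest there, to 3659 CPM in the TREM-1+ and 3985 CPM in the TREM-1- library. For Jun the span over lavages exceeded the fold between fractions, taken from the mean paired log2 difference (5.21-fold against 1.19-fold). For Batf3, with both fractions averaged, it was the smaller (1.24-fold against 1.57-fold). Within TREM-1- libraries alone Batf3 ran from 8.38 to 13.8 CPM, and within TREM-1+ libraries from 15.4 to 18.9 CPM. A span from lowest to highest and a mean difference are unlike measures.

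The genes most like a member over libraries were found by Pearson r of log2 CPM over all 12 libraries, among 10966 genes of at least 5 CPM. These values describe 12 libraries that come in pairs from 6 lavages. For Jun the closest were Polg2 (r = 0.95), H3f3b (r = 0.95) and Gm51881 (r = 0.95). For Junb they were Cd200r3 (r = 0.94), Mta3 (r = 0.92) and Lat2 (r = 0.91). Batf3 was followed by St6gal1 (r = 0.91), Rbbp7 (r = 0.91) and the receptor gene Il13ra1 (r = 0.90). For Fos the closest were Slc10a1 (r = 0.92), Gm36712 (r = 0.89) and Zfp160 (r = 0.87).

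Other bZIP factors that can join the network were called in both directions, 5 higher and 4 lower of 23 tested (39.1% called, against 9.82% of all genes tested), with a median log2 fold change of 0.01. The related lists, here and below, were written with earlier results of these data known. No test over a list was run, so a share above that of all genes is a description. Creb5, of the ATF2 subfamily that pairs with JUN, averaged 96.0 ± 11.4 CPM in TREM-1+ cells and 67.0 ± 11.3 CPM in TREM-1- eosinophils (log2 fold change 0.52 ± 0.06, SE, edgeR adjusted p = 1.6e-07). Mafk, a small MAF protein that forms dimers with BACH and NRF factors, averaged 357 ± 49.2 CPM in TREM-1+ cells and 444 ± 73.9 CPM in TREM-1- eosinophils (-0.31 ± 0.03, SE, edgeR adjusted p = 4.38e-08). Creb5 was higher and Mafk lower in TREM-1+ cells in 6 of 6 lavages. Nfe2l1 (0.20) and Atf5 (0.39) were also higher, and Bach1 (-0.16), which binds with small MAF proteins, and Atf1 (-0.13) were also lower. Leaving out 1 lavage ended the call of Atf5 (without lavage 1 or 2, edgeR adjusted p = 0.0916 and 0.0798) and of Atf1 (without lavage 1, 2, 3 or 4, edgeR adjusted p between 0.0543 and 0.143), and without lavage 1, as in lavages 3 to 6 alone, the list had 5 calls. Atf5 was at 0.60 in lavages 1 and 2 alone and at 0.26, uncalled, in lavages 3 to 6 alone (edgeR adjusted p = 0.484), and Atf1 was uncalled in both parts. Mafk was called in both, at -0.20 in lavages 1 and 2. With library totals alone Bach1 was at -0.033 and Atf1 at -0.0069, both uncalled (edgeR adjusted p = 0.702 and 0.943).

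Upstream of AP-1, MAP kinases phosphorylate JUN and the factors that switch on Fos. In that list 0 genes were called higher and 3 lower of 24 tested, with a median of -0.03. Its 12.5% of genes called lay near the 9.82% of all genes tested, so the count sets nothing apart in this list. Map2k3, a kinase of the p38 pathway, was the clearest (-0.29 ± 0.04, SE, edgeR adjusted p = 7.48e-06), followed by Rps6ka1 (-0.12) and Mapkapk3 (-0.13). Of the activators of the Fos and Jun promoters, 0 were called higher and 4 lower of 12 tested (33.3% called), with a median of -0.01. They included Srf (-0.19), which binds the serum response element of Fos, its partner Elk3 (-0.19) and Stat3 (-0.12). Scaling by library totals alone, which shifted the median of all genes tested to 0.13, turned Rps6ka1 and Stat3 to 0.0047 and 0.0051 and left Mapkapk3, Srf and Elk3 uncalled. Leaving out 1 lavage ended the calls of Rps6ka1 (without lavage 1 or 2, edgeR adjusted p = 0.069 and 0.0522), Stat3 (without lavage 1, 2 or 4, between 0.0578 and 0.085) and Mapkapk3 (without lavage 1, 2, 3 or 6, between 0.0526 and 0.11). The MAP kinase list had 1 call without lavage 1 or 2, and the activators had 2 calls without lavage 1, 2 or 4. In lavages 1 and 2 alone the MAP kinase list had 6 calls and the activators 2, and in lavages 3 to 6 alone each had 1. Rps6ka1, Stat3 and Mapkapk3 were called in lavages 1 and 2 alone and not in lavages 3 to 6 alone (edgeR adjusted p between 0.195 and 0.255). Srf was uncalled in lavages 1 and 2 (-0.11, edgeR adjusted p = 0.309), and Elk3 in both parts (edgeR adjusted p = 0.0846 and 0.0638). Without lavages 3 and 4 the activators had 1 call. With library totals the MAP kinase list had 3 genes higher and 1 lower, and the activators 2 higher and 0 lower.

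Partners and turnover factors of AP-1 proteins had 2 genes called higher and 4 lower of 17 tested, with a median of 0.01. Called were 35.3%, against 9.82% of all genes tested. Ets1, whose protein binds beside AP-1 at many composite sites, was higher (0.32 ± 0.04, SE, edgeR adjusted p = 2.34e-06). Irf4, the partner of BATF proteins, had 0.411, 0.279, 4.61, 2.67, 7.39 and 2.52 CPM in TREM-1+ libraries of lavages 1 to 6, against 0, 0, 0.762, 2.04, 3.53 and 1.57 CPM in TREM-1- libraries. It was higher in 6 of 6 pairs, from at most 116 counts (log2 fold change 1.40 ± 0.38, SE, edgeR adjusted p = 0.0142). The call was lost without lavage 3 (1.06, edgeR adjusted p = 0.0726), without lavage 5 (1.59, edgeR adjusted p = 0.052) and without lavages 3 and 4 (1.29, edgeR adjusted p = 0.0598). Irf4 was near 0 in lavages 1 and 2, in which the T and innate lymphoid cell markers were also lowest, and the part of such cells in this result was not tested. Runx3 (-0.26), Ets2 (-0.24) and Fbxw7 (-0.25), whose ubiquitin ligase degrades phosphorylated JUN, were called lower, though not with library totals alone. In lavages 1 and 2 alone Ets2 was at -0.12 and Fbxw7 at -0.13, both uncalled (edgeR adjusted p = 0.273 and 0.302).

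Other immediate early genes had the most calls, 4 higher and 14 lower of 33 tested, with a median log2 fold change of -0.10. Called were 54.5% of the list, against 9.82% of all genes tested (3.10% higher and 6.72% lower). As the list was written with earlier results known, this share does not test it. Ier3 averaged 21.6 ± 2.40 CPM in TREM-1+ cells and 34.1 ± 5.05 CPM in TREM-1- eosinophils (-0.65 ± 0.08, SE, edgeR adjusted p = 2.87e-07). Zfp36, which encodes tristetraprolin, a protein that speeds decay of cytokine transcripts, averaged 154.4 ± 36.4 CPM in TREM-1+ cells and 213 ± 46.3 CPM in TREM-1- eosinophils (-0.47 ± 0.05, SE, edgeR adjusted p = 3.53e-08). Ier5 was lower too (-0.27). Against them stood the Zfp36 relative Zfp36l1 (0.59), the ERK phosphatase gene Dusp5 (0.37) and Klf10 (0.22), each higher in 6 of 6 lavages. Junb therefore moved in the direction of the more numerous calls of this list and Jun in the other. Lower calls were also the more numerous over all genes tested. With library totals alone the split was 5 higher and 6 lower.

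Genes widely described as AP-1 targets were called in both directions, 3 higher and 7 lower of 27 tested, with a median of -0.02. Called were 37.0%, against 9.82% of all genes tested. Il1b, the cytokine interleukin 1β, averaged 47.7 ± 4.45 CPM in TREM-1+ cells and 20.9 ± 2.60 CPM in TREM-1- eosinophils. Ccl3 (0.56) and the macrophage elastase gene Mmp12 (1.04) were also higher. Ccl3 was not called in lavages 3 to 6 alone (0.51, edgeR adjusted p = 0.159). The Mmp12 call was lost without lavage 3 (0.86, edgeR adjusted p = 0.0572) or lavage 6 (0.72, edgeR adjusted p = 0.0952), and in lavages 1 and 2 alone Mmp12 was at 0.48 (edgeR adjusted p = 0.802). All 11 listed macrophage markers, tested or not, summed to between 46.8 and 627 CPM in TREM-1+ cells and between 19.8 and 512 CPM in TREM-1- libraries. Their sum was the higher of each pair in TREM-1+ libraries in 6 of 6 lavages. Of 6 macrophage markers tested, 2 were called higher (33.3% called), and the part of macrophages in these results was not tested. Lower were Mmp9 (-0.59) for gelatinase B and Cd274 (-0.32) for PD-L1, each in 6 of 6 lavages. Cd274 was at -0.19 in lavages 1 and 2 alone, still called, and the list had 6 calls there. The list split 7 higher and 5 lower with library totals alone, under which other bZIP factors split 8 and 1 and partners 4 and 0. Mt2 was at 0 counts in all libraries.

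Heat shock genes, which rise with cell handling stress as several AP-1 genes do, had 0 of 12 called by edgeR, DESeq2 or limma-voom, and 0, 1 and 2 at an unadjusted p below 0.05 by those tools in that order. Their median log2 fold change was 0.06, and with library totals alone 3 were called higher. The part of handling stress in the differences of AP-1 genes was not tested. Among the remaining marker lists, neutrophil markers had 6 higher and 1 lower of 7 tested. The sum of all 11 listed, mostly Retnlg, fell below that of the TREM-1- partner in 6 of 6 lavages. It lay between 1039 and 1880 CPM in TREM-1+ cells and between 1296 and 1904 CPM in TREM-1- libraries, and Elane was at 0. Monocyte markers had 2 higher and 1 lower of 5. Mast cell and basophil markers had 1 higher and 1 lower of 4, with Tpsb2 at 0. Eosinophil markers had 2 higher and 6 lower of 11. Of all genes tested, 9.82% were called, 3.10% as higher and 6.72% as lower. B cell and epithelial markers had 0 of 2 called in each list by edgeR, DESeq2 and limma-voom, and 0 with an unadjusted p below 0.05. The part of these cells in the differences of AP-1 genes was not tested.

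**Figure D4:**
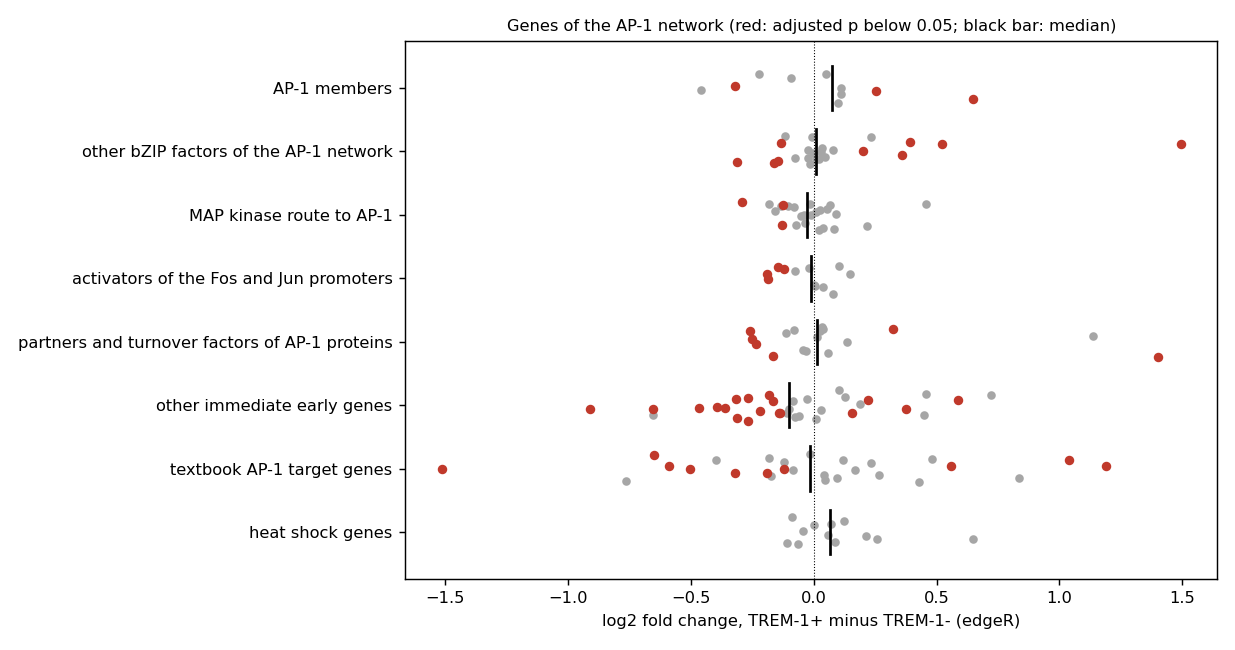
Log2 fold change, TREM-1+ minus TREM-1- (edgeR), of every tested AP-1 member and of every tested gene in the 7 related lists (marker lists are not drawn), red where the adjusted p was below 0.05, with a black bar at each list's median. Vertical scatter within a row has no meaning. Medians of these rows lie near 0, the lowest being -0.10 for other immediate early genes.

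Reads of some members may be shared with genes on the other strand. In GENCODE vM21 exons of Jun overlap Junos, those of Junb overlap Prdx2, those of Jund overlap Gm11175 and those of Fosl1 overlap Ccdc85b, all on the opposite strand, and the sources used here do not say if strand was used when reads were assigned. Junos was at 15.3 CPM in TREM-1+ cells and 14.3 CPM in TREM-1- eosinophils (edgeR log2 fold change 0.07, adjusted p = 0.813), and Prdx2 at 14.9 CPM in TREM-1+ cells and 12.3 CPM in TREM-1- eosinophils (edgeR log2 fold change 0.24, adjusted p = 0.203). Ccdc85b was at 4.87 CPM in TREM-1+ cells and 6.07 CPM in TREM-1- eosinophils (edgeR log2 fold change -0.31, adjusted p = 0.294), and Gm11175 was not analysed here. These values come from the same assignment of reads, and the part of shared reads in the results of Jun, Junb, Jund and Fosl1 was not tested.

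**Figure D5:**
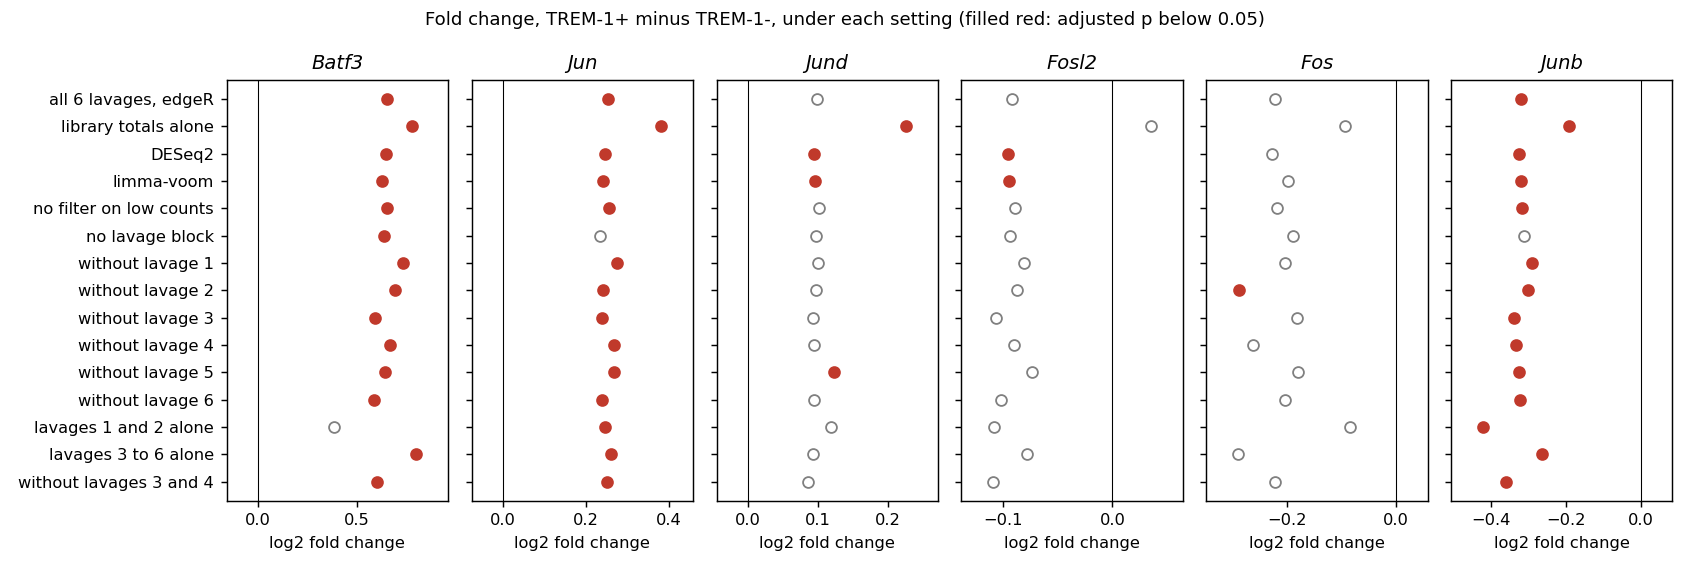
Log2 fold change, TREM-1+ minus TREM-1-, of 6 AP-1 members (columns) under each way of scaling, testing or leaving out lavages (rows), with filled red points where the adjusted p was below 0.05. Batf3 and Jun stay right of 0 and Junb left of 0 in every row, whereas Fosl2 crosses to 0.035 with library totals alone, the calls of Jund, Fosl2 and Fos change between rows, and Jun and Junb are open circles in the row with no lavage block.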

How the data were processed

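RNA of 12 libraries, 6 TREM-1+ and 6 TREM-1- from the same 6 lavages, was sequenced after removal of ribosomal RNA with a stranded kit (paired ends of 100 bp), per the labels' protocols. The build GRCm39 is named in the submitters' processing notes, with kallisto (0.45.0), edgeR (3.42.4) and R (4.3.0) as tools. The authors deposited an estimated count per gene, whole as deposited, so that rounding changed 0 values. They also deposited log2 CPM for 17934 genes, which were recomputed from the counts to within 5e-09. Of the deposited sample columns, 0 were left unused.

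Fits used R 4.3.3 and edgeR 4.0.16, with TMM scaling, lavage as a block and a robust quasi-likelihood F test on genes kept by filterByExpr (10 counts at least, 15 in total). SE came from the F statistic. Paired log2 CPM differences used a prior count of 1. As alternatives, limma 3.58.1 (voom) and DESeq2 1.42.0 were run. Scripts were tested on simulated data. The series' design text gives the pairing, and deviations from group means correlated within pairs by between 0.13 and 0.50. Over genes of at least 20 counts, chi-square per gene between libraries of a fraction ran from 5.26, in lavages 1 and 2, to 191, so no library was counted as a repeat. Members and lists were chosen with earlier results of these data known. Named list genes were up to 3 called genes with the smallest p in each direction (some genes are not reported here), and likeness was printed for called members and Fos. Intervals on counts were not used, and depth limits Fosl1 most.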

Additional observations from a re-analysis of the deposited data

Results flagged for a closer look

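Of 30 sets of 6 values (the CPM of each member in TREM-1+ and in TREM-1- libraries, and its paired differences), 2 held a value far from the other 5. Jund in the TREM-1- library of lavage 6 was at 225.7 CPM, with a gap to the next library of 0.657 of the range. The paired Jund difference of lavage 5 was -0.0025 on the log2 CPM scale, with a gap of 0.675 of the range. Chance alone flags about 1 in 20 such sets.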

How the results depend on the processing

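Batf3, Jun and Junb kept their direction under all alternatives run. Batf3 lost its call in lavages 1 and 2 alone (0.38, edgeR adjusted p = 0.0561). Without the replicate block the paired comparison became an unpaired one: 83 genes were called in place of 1797, 1 member (Batf3) in place of 3 and 4 related genes in place of 49, with Jun at 0.23 and Junb at -0.31, uncalled. In lavages 3 to 6 alone 1168 genes were called. DESeq2 and limma-voom each called 5 members, adding Fosl2 (-0.096 and -0.095) and Jund (0.095 and 0.096). With library totals alone Jund was called (0.23), Fosl2 turned to 0.035 and Rps6ka1 and Stat3 to 0.0047 and 0.0051, and 1880 genes were higher and 376 lower, in place of 568 and 1229. Leaving out 1 lavage at a time, the log2 fold change ran from -0.29 to -0.18 for Fos, from 0.094 to 0.12 for Jund, from -0.041 to 0.31 for Atf3 and from -0.027 to 0.16 for Batf, and Batf was -0.082 without lavages 3 and 4. Beyond fewer samples in the smaller fits, the causes were not tested. A prior count of 5 moved the mean paired difference of 0 of 10 members to the other sign.

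Levels near 1 CPM, as in Fosl1, leave wide intervals at these depths. Gene-level counts do not separate isoforms, and transcripts say nothing of protein, phosphorylation or dimer choice.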
